A study of Rattus norvegicus with 2 samples.

Results

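The interleukin-6 (IL-6) family was examined in rat cervical lymph nodes on 10 genes: the cytokines Il6, Lif, Osm and Il11, the receptor chains Il6r, Il6st, Lifr and Osmr, and the signalling genes Socs3 and Stat3. The members were found as the probes other than controls whose gene name in the scanner files was that of a member. This gave 19 probes for 10 of the 36174 gene names on the array. Of the 10 genes, 8 had their representative probe well above background on at least 1 array, and Lif and Osmr did not.

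RNA from the nodes of male Sprague-Dawley rats, 10 to 12 weeks old, was hybridized to 1 array per group. The control (C) rats were not restrained, and the restraint stress (RS) rats were tied on their backs to a board. The RS array carries no time in its labels, and the study's text places the array comparison at 30 min of restraint. Rats of both groups were anesthetized with halothane and killed with pentobarbital before the nodes were taken, and the methods do not give the number of rats behind each array or whether RNA was pooled. With 1 array per group there was no replicate, so that no test was run and no spread between rats is known. Differences are given on the log2 scale, RS minus C, as value ± spot error, which is the measuring error of the spots only.

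Cytokines of the IL-6 family signal through receptor complexes that share the chain gp130, which is encoded by Il6st. Ligand binding activates JAK kinases, which phosphorylate the transcription factor STAT3, and STAT3 induces Socs3, whose protein binds to gp130 and shuts the signal off. In lymph nodes, IL-6 is known for its role in the differentiation of B cells to plasma cells and of helper T cells.

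Il6, Il11 and Socs3 gave more signal on the RS array than on the C array. The probe for Il6 was 10.6-fold higher, that for Il11 was at least 10.3-fold higher, and that for Socs3 was 6.99-fold higher. Il6r, Il6st, Osm and Stat3 differed by less than 2-fold. Lifr was 3.93-fold lower on its representative probe, whereas its other 2 probes were higher on the RS array. Lif and Osmr did not stand well above background on C or RS.

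The probes behind these values are 60 bases long. The following sequences are shown because the results on Il6, Il11, Socs3 and Lifr rest on them. The Il6 probe and the second Socs3 probe are given whole, and the others by their first 30 bases. Capitals in the second Socs3 probe mark a stop codon, which closes the only reading frame of its strand that has no earlier stop.
Il6: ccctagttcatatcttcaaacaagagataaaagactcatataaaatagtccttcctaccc
Il11: ccagagtttccaccatgactgtattttgca
Socs3 probe 1: gaagatgcttgaaaaaactcaaccaaatcc
Socs3 probe 2: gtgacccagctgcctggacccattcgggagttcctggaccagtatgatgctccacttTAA
Lifr probe 1: gagagtagctcttagaaattgtctgtactg
Lifr probe 2: tccatcaattccaggcaatttttgattcct
Lifr probe 3: aaaccatccaagtcaaaacaacgttaattt

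Probe positions were taken from the scanner files and refer to rat build rn4. The Il6 probe maps to chromosome 4 from 457279 to 458563 on the reverse strand, a stretch longer than the probe. The Il11 probe maps to chromosome 1 from 67792503 to 67792562 on the forward strand. Socs3 probe 1 lies on chromosome 10 from 107957211 to 107957270 and probe 2 from 107958636 to 107958695, both on the reverse strand. The Lifr probes lie on chromosome 2 on the forward strand, probe 2 from 56477054 to 56477113, probe 3 from 56477549 to 56477608, and probe 1 from 56478895 to 56478954. No annotation of rn4 was used here, so that the exon or untranslated region that a probe reads is not stated.

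Each array was set to its own 75th percentile, an intensity of 189 for C and 176 for RS. The scanner software called 54.7% of probes well above background for C and 54.9% for RS, and none of the probes for genes reached saturation. Where a gene had several probes, the one with the highest mean signal stood for it, and 21096 genes were screened. Markers of T cells (9 of 9) and of B cells (7 of 7) were well above background on both arrays. So were 10 of 11 fat cell markers, 3 of 7 skeletal muscle markers and 1 of 6 salivary gland markers.

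Among the ligands, Il6, which encodes the founding cytokine of the family, read 9.99 on C and 98.6 on RS. Its single spot was well above background on both arrays, and on C it lay close to 9.45, the lowest signal among the probes so marked there. The difference was 3.40 ± 0.35. Of the 21086 genes with a value, 26 others had a difference as high or higher (0.123%). Lower bounds were counted as values here and for the other members, so that such counts can be too low. Among the 19214 genes above background on both arrays, Il6 ranked 21 from the top. In a bulk sample, more cells of a type and more RNA per cell cannot be told apart.

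Il11, which encodes a cytokine known from blood platelet formation and fibrosis, read 90.7 on RS, and on C its single spot was not well above background, with a signal of 2.36. Il11 was at least 10.3-fold higher, a bound of 3.36 on the log2 scale, set against the lowest signal that C showed above background. The spot error on the RS array was 0.15. Il11 was screened through the RS array only, so that its difference has no rank among the genes.

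The size of the Il6 and Il11 differences depended on the handling of dim signals. With the normexp background correction, which adds an offset of 50 to all signals, the difference was 1.34 for Il6 and at least 1.22 for Il11, and both were still past 2-fold.

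Osm encodes oncostatin M, a cytokine of activated macrophages, T cells and neutrophils. Its probe 1 went from 480 to 535 (0.25 ± 0.20), and its probe 2 from 30.1 to 21.7 (-0.37 ± 0.26). The probes pointed in opposite directions, and neither difference reached 2-fold.

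Lif encodes leukemia inhibitory factor. Its 3 probes had intensities of 2.07 to 5.78 on C and 2.83 to 6.08 on RS, and none was well above background on either. Of these, 2 start at 84890560 and 84890562 on chromosome 14 and read nearly the same stretch. At this signal a change in Lif was not detectable, and no fold change is given.

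**Figure D1:**
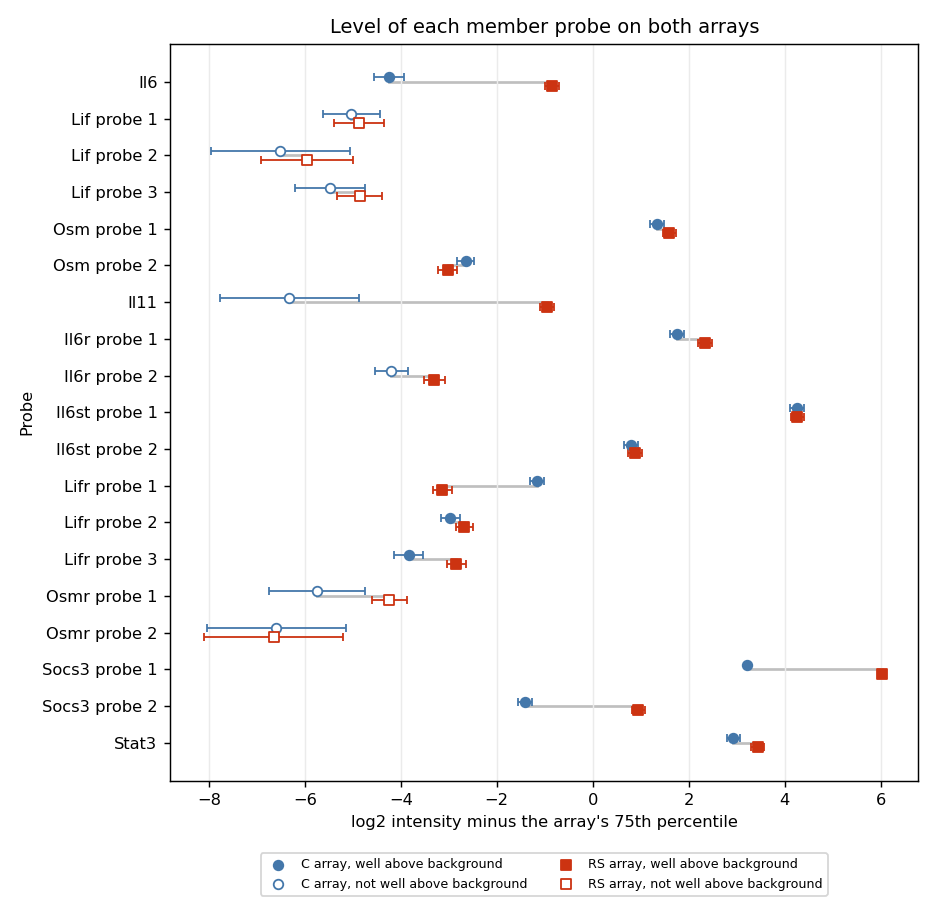
Level of the 19 member probes on the C array (circles) and the RS array (squares), in log2 units relative to each array's 75th percentile. Bars are the spot error and open symbols are probes not well above background. Among probes above background on at least 1 array, the pairs farthest apart are Il6, Il11, both Socs3 probes and Lifr probe 1, of which Lifr probe 1 is the pair with the lower value on the RS array.

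Promoter sequences of RefSeq (build GRCr8) were given for 8 of the 10 members, and the 250 bases before the annotated start were searched on both strands for TTCNNNGAA (the element bound by STAT factors), TGACGTCA (the cAMP response element) and TGANTCA (the AP-1 element). Those of Il6 and Il11 are shown because these ligands were higher on the RS array. The sequence of Il6 is chr4:5894576-5894825 on the reverse strand and that of Il11 is chr1:78098372-78098621 on the forward strand. Capitals mark the matches.
Il6: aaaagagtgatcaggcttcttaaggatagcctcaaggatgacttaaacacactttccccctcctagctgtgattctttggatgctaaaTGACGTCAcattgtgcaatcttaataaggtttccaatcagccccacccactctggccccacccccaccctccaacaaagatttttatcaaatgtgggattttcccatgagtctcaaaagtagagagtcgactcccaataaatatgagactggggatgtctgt
Il11: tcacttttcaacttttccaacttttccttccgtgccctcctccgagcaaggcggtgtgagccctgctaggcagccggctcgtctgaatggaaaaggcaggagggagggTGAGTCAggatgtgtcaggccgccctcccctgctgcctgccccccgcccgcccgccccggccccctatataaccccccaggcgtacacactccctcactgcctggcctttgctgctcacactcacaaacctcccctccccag

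The cAMP element of Il6 began at position -162 from the start, and 531 of 33469 promoters (1.59%) hold this motif in the same window. The AP-1 element of Il11 began at position -142, and 6.34% of promoters hold it. Osmr also held the AP-1 motif, at position -33. The STAT motif was found in 0 of the 8 members and in 7.67% of all promoters. Only the windows of Il6 and Il11 end at the outer edge of the gene as RefSeq bounds it. The start used lies inside the gene for the other 6 members, by 154 bases for Stat3, 241 for Osmr, 1207 for Socs3, 1496 for Il6r, 11360 for Il6st and 11602 for Lifr, so that the bases before their outermost starts were not searched in full. A match describes the letters only.

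Among the receptor chains, Il6r, which encodes the receptor that binds IL-6, went from 634 to 895 on probe 1 (0.60 ± 0.20, 1.51-fold). Probe 2 went from 10.3, not well above background, to 17.8, a plain ratio of 1.86 (0.90 ± 0.41). Both probes were higher on the RS array by less than 2-fold, probe 2 from a C signal not well above background. For probe 1, 7.79% of genes had a value as high or higher.

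Il6st, the shared chain gp130, went from 3592 to 3396 on probe 1 (0.02 ± 0.20) and from 329 to 325 on probe 2 (0.08 ± 0.20). Neither probe differed between the arrays by more than its spot error. The sign of the value of probe 1 turned with the scaling (-0.08 without any).

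Lifr encodes the receptor chain that binds LIF and, in complex with gp130, oncostatin M. Probe 1 went from 84.5 to 20.1 (-1.97 ± 0.25), and 413 other genes had a value as low or lower. Probe 2 went from 24.2 to 27.6 (0.29 ± 0.27), and probe 3 from 13.2 to 24.6 (0.99 ± 0.36). All 3 probes were well above background on both arrays, and probe 1 differed in direction from the others.

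The probe of Lifr that was lower lies farthest along the gene, at position 6220 of a predicted transcript in which probe 3 starts at position 4874. Averaged over the 3 probes, the difference of Lifr was -0.23, and with the normexp correction it was -0.82, neither past 2-fold.

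Osmr encodes the oncostatin M receptor. Its probes went from 3.50 to 9.32 and from 1.95 to 1.76, and none of these signals was well above background. The spot error of the first difference was 1.06, and no fold change is given.

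Socs3, the feedback inhibitor of gp130 signalling, was read by a probe printed in 10 spots on each array. Of these, 9 were used on the C array, with intensities from 1667 to 1859 (median 1769), and 8 on the RS array, from 10889 to 11963 (median 11567). The SD of the used spots on the log2 scale was 0.049 for C and 0.041 for RS. These spots are repeat prints of 1 probe on 1 array per group, so that their SD holds no spread between rats. The averages, 1764 and 11517, differed by 2.81 ± 0.07. Of the genes with a value, 66 others (0.313%) had one as high or higher. Socs3 ranked 42 from the top among the 19214 genes above background on both arrays.

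The second Socs3 probe, which reads another part of the transcript, went from 71.2 to 341 (2.36 ± 0.21, 5.13-fold). Both probes were higher on the RS array by more than their spot errors. With normexp the difference of probe 1 was 2.73.

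**Figure D2:**
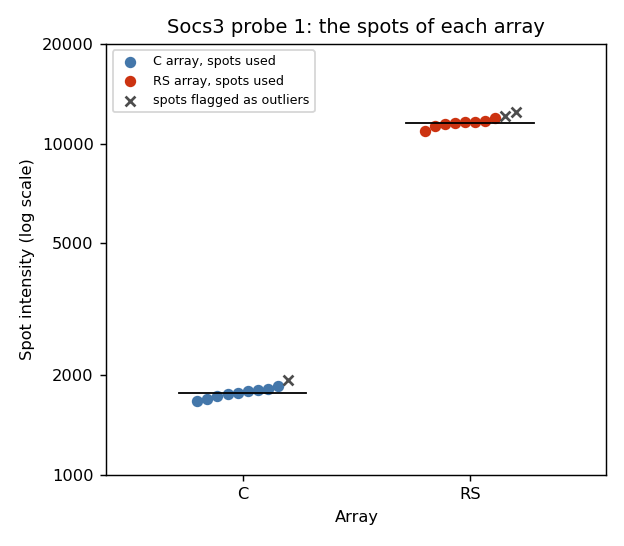
Intensity of each of the 10 spots of Socs3 probe 1 on the C array and on the RS array, on a log axis. Dots are the spots used (9 and 8), crosses the spots marked as outliers, and lines the averages of the log2 intensities, 1764 and 11517. The spots are repeat prints of 1 probe on 1 array per group.

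Stat3, the transcription factor that carries the signal to the nucleus, went from 1442 to 1908 on its single probe (0.50 ± 0.20, 1.42-fold), and 10.0% of genes had a value as high or higher. Stat3 was therefore higher by more than its spot error and under 2-fold.

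Of the 8 members screened, 3 were higher by 2-fold or more, against 3.46% of the 21096 screened genes, and 1 was lower, against 4.28%. The median over the 8 was 0.55, and that over all screened genes was 0.02. Il11 is among the 3 and in the median, though it was screened through the RS array only, where it was high. Of the 7 members above background on both arrays, 2 were higher, against 493 of 19214 genes, and 1 was lower, against 601. The members were chosen with earlier results of these data known, so that these values are not a test. The share of genes past 2-fold falls with signal. From the dimmest quartile of genes to the brightest, 6.2%, 3.79%, 2.33% and 1.52% were higher, and 7.64%, 4.25%, 2.98% and 2.26% were lower. Il11 lies in the dimmest quartile, Il6 and Lifr in the next, Osm in the one after it, and Socs3, Il6r, Il6st and Stat3 in the brightest.

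**Figure D3:**
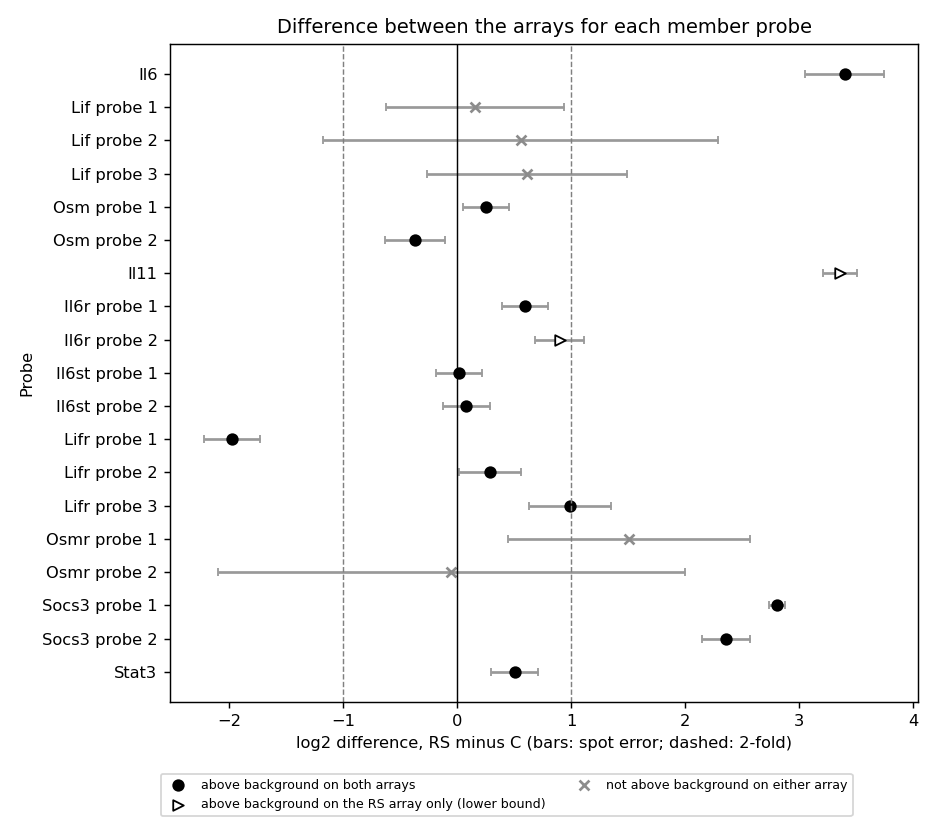
Log2 difference (RS minus C) of each member probe, with dashed lines at 2-fold. Bars are the spot error, of the RS spot alone for probes above background on the RS array only. Crosses are probes not above background on either array. Il6, Il11 and both Socs3 probes lie beyond 2-fold on the right, Lifr probe 1 beyond it on the left at -1.97 and Lifr probe 3 at 0.99.

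**Figure D4:**
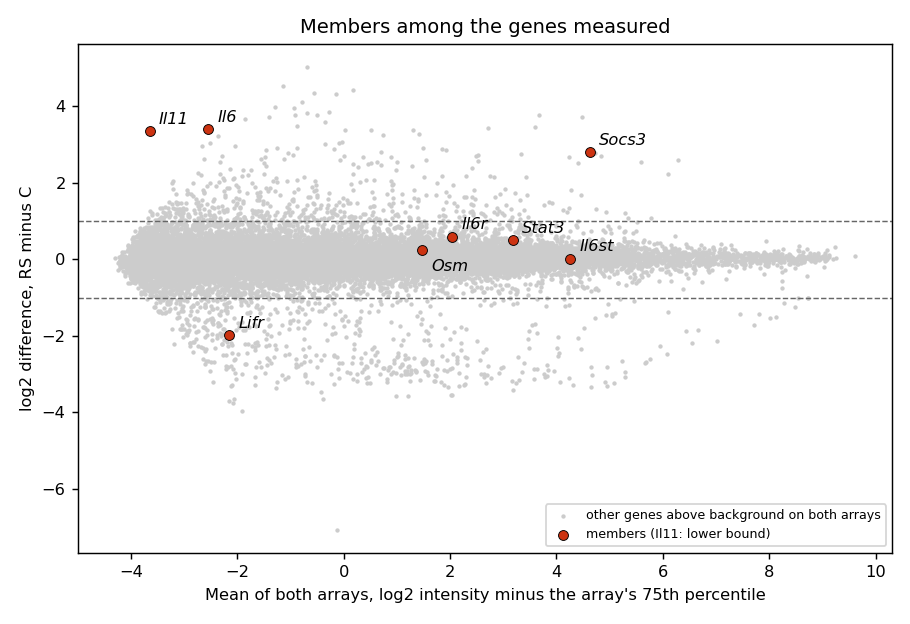
Log2 difference against mean signal for the genes above background on both arrays (grey) and for the 8 screened members (red; Il11 as its lower bound), with dashed lines at 2-fold. Socs3 stands at 2.81 on the bright side, Il6 and Il11 at 3.40 and 3.36 on the dim side with few grey points as high, and Lifr at -1.97 among many other genes past 2-fold.

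For the wider pathway, 6 lists held 69 other genes, of which 59 were screened. Of these, 12 (20.3%) were higher by 2-fold or more and 0 were lower, against 3.46% and 4.28% of all screened genes. Fos is among the 12 and was screened through the RS array only. With genes above background on both arrays only, 11 were higher, against 493 of 19214 genes. The lists were chosen with earlier results of these data known, so that the shares stand side by side and are not a test. Of 21 known STAT3 target genes screened, 10 were higher, Fos among them, and the median of the list was 0.82. Of 10 genes of JAK-STAT signalling, 0 were past 2-fold, with a median of 0.08.

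Among the STAT3 targets, the transcription factor gene Fos was 7.89-fold higher as a plain ratio. It read 11.4 on the C array, not well above background, and 84.3 on the RS array. Maff, which encodes a small Maf factor, went from 166 to 780 (5.02-fold), and Il10, which encodes an anti-inflammatory cytokine, from 25.3 to 109 (4.60-fold). Cebpb, which encodes a factor of the acute phase response, went from 438 to 1849 (4.52-fold). Timp1, which encodes an inhibitor of metalloproteinases, went from 320 to 1196, and Cebpd, related to Cebpb, from 962 to 2987 (3.33-fold).

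The other 4 STAT3 targets past 2-fold were Junb, Bcl3, Pim1 and Nfil3, of which Junb was the highest (2.95-fold) and Nfil3 the lowest, just past the threshold. Among these, Bcl3 went from 3234 to 7472 (1.31 ± 0.20), while Hif1a, which stayed within 2-fold, went from 2028 to 2469 (0.38 ± 0.20). Several of these genes, Fos and Junb among them, are also known to be induced by signals other than STAT3.

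Among the 12 inhibitors of JAK-STAT signalling, 1 was higher by 2-fold or more, against 3.46% of all screened genes. The higher inhibitor was Socs1, a relative of Socs3, which went from 20.4 to 55.0 (1.53 ± 0.27). Cish, a related feedback gene, went from 45.0 to 82.4 (0.97 ± 0.22), and Socs2 went from 58.4 to 34.9 (-0.64 ± 0.23). The median of the list was 0.24.

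The kinase genes of the pathway lay within 2-fold. Jak1 went from 15989 to 15585 (0.06 ± 0.20), Jak2 from 226 to 308 (0.54 ± 0.20), and Tyk2 from 223 to 175 (-0.25 ± 0.21).

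The other ligand and receptor genes of the family that were above background on both arrays also lay within 2-fold. Among the other ligand genes, Clcf1 went from 302 to 348 (0.30 ± 0.20), Cntf from 180 to 218 (0.38 ± 0.21), and Ebi3, which encodes a chain of interleukin-27, from 560 to 707 (0.43 ± 0.20). Ctf1, which encodes cardiotrophin, went from 17.5 to 16.1 (-0.02 ± 0.34). Of 4 other receptor and sheddase genes screened, the values ran from -0.23 for Il27ra to 0.09 for Il11ra1, and the median was 0.02. Il11ra1, which encodes the receptor of IL-11, went from 87.5 to 86.9, a difference smaller than its spot error of 0.21. Adam17, whose protease sheds the IL-6 receptor, went from 99.9 to 99.0.

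Of 12 genes of acute phase proteins, which the liver makes in response to IL-6, 7 were screened. Of the 7, 1 was higher by 2-fold or more, against 3.46% of all screened genes. Serpina3n, which encodes a serine protease inhibitor, went from 317 to 1350 (2.19 ± 0.14). Fga, Fgb, Fgg, Crp and Orm1 did not stand above background on C or RS. The remaining 6 genes lay between -0.52 for A2m and 0.75 for Lbp, whose C signal was not well above background. The median of the 7 was 0.32.

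**Figure D5:**
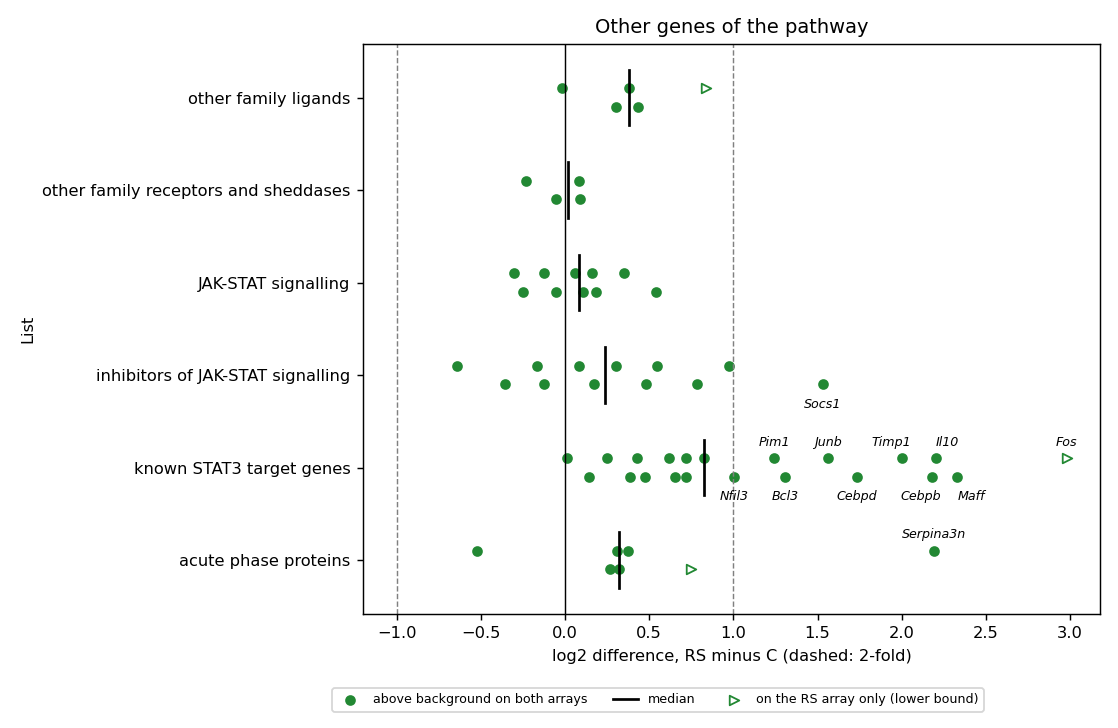
Log2 difference (RS minus C) of the screened genes of 6 pathway lists, with the median of each list as a black line and dashed lines at 2-fold. The 10 STAT3 targets past 2-fold and Socs1 and Serpina3n lie beyond the right dashed line. The points of the ligand, receptor and signalling lists lie within 2-fold. Open symbols are genes above background on the RS array only.

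Markers of other cell types differed between the arrays as well. The counts below stand against 3.46% of all screened genes higher and 4.28% lower by 2-fold or more. Of 10 fat cell markers screened, 9 were higher by 2-fold or more, with a median of 2.19 and a summed intensity of 6972 on C and 18861 on RS, while Plin1 was not well above background on either. Of 7 erythrocyte markers screened, 7 were higher, with a median of 2.60 and sums of 10236 and 57588, and Slc4a1 and Epb42 were not above background. Among 10 markers of fibroblasts and reticular stroma, 4 were higher, the collagen genes Col1a1, Col1a2 and Col3a1 with Pdpn, with a median of 0.51 and sums of 37079 and 45038. The rest of this list lay within 2-fold. Ccl19 (-0.56), Pdgfra (-0.39) and Ccl21 (-0.19) were lower on the RS array, and Dcn (0.79), Pdgfrb (0.23) and Lum (0.06) were higher.

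Fat and stromal cells are known sources of IL-6, and the part of these markers in the values of Il6, Il11, Socs3 and the STAT3 targets was not tested. The macrophage markers had 0 of 10 past 2-fold, a median of 0.02 and sums of 27147 and 25563. Of the neutrophil markers, 2 of 6 screened were higher, S100a8 and S100a9, with a median of 0.004 and sums of 183 and 846. The other screened neutrophil markers were Ltf (-0.97 ± 0.29), Mmp8 (-0.41 ± 0.26), Mmp9 (-0.11 ± 0.22) and Csf3r (0.11 ± 0.29). The granule genes Mpo, Elane, Ngp and Camp were not above background on either array. Of the endothelial markers, 1 of 9 was higher, Emcn, with a median of 0.005 and sums of 5570 and 5718. T cell markers had 0 of 9 past 2-fold, a median of -0.16 and sums of 31890 and 26592. B cell markers had 0 of 7, a median of -0.05 and sums of 16737 and 15814. Of 7 skeletal muscle markers, 5 were screened, 0 were past 2-fold and the median was -0.23.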

How the data were processed

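Cy3-labeled RNA was read on Agilent SurePrint G3 Rat GE 8X60K arrays, 1 per group. The authors deposited scanner output of Feature Extraction 11.5.1.1 as spot intensity values, with background subtracted within the array. The log2 table that they also deposited lay within 0.1 of the values computed here, scaled as below, for 100% of 45598 probes, and it served as an alternative.

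After control spots and outlier spots (489 on C, 660 on RS) were left out, log2 intensity was averaged per probe and centred on each array's 75th percentile, as in the study's methods. A probe was well above background when the software marked most of its spots so. The threshold was 2-fold. Where a probe was above background on 1 array only, the dim array's value was raised to at least the lowest signal seen there above background (9.45 on C, 8.52 on RS). Its fold is a lower bound where the value was raised. Where the value already lay above that signal, the fold is the plain ratio. The spot error combines the software's errors of both arrays. The number of arrays limits the precision, and both came from 1 slide and 1 scan.

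The members, gene lists and motifs were chosen with earlier results of these data known. Named were all members with all probes, of each pathway list the 6 largest values past 2-fold, and the STAT3 targets with the highest mean signal, Bcl3 and Hif1a; the other genes named were chosen after their values were seen. The value of 1 gene of a pathway list is not reported here. The alternatives concerned scaling, background correction, the deposited table, outlier spots, the probe per gene, the bound, the filter and the call rule. The steps were tested on simulated arrays. Software was R 4.3.3 (limma 3.58.1) and Python 3.11.15 (numpy 2.4.6, pandas 2.3.3, matplotlib 3.10.9).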

Additional observations from a re-analysis of the deposited data

How the results depend on the processing

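Il6, Il11 and Socs3 were past 2-fold and higher on the RS array under every alternative that gave them a value, with log2 differences of 1.34 to 3.43 for Il6, 1.22 to 5.36 for Il11 and 2.58 to 2.83 for Socs3. Il11 had no value with genes above background on both arrays only. The count of 3 higher members was 2 in that setting and 4, with Osmr, without a background filter. The count of 1 lower member, Lifr, was 0 with normexp and 0 when the probes of a gene were averaged, and Osm changed sign with that average (-0.06). Higher pathway genes numbered between 9 and 13. Over all genes, the 730 higher and 903 lower were 234 and 378 with normexp and 1741 and 1905 without a filter. With genes above background on both arrays only, 493 were higher and 601 lower. Normexp adds an offset, which shrinks differences of dim genes by construction. The scalings tried shifted the all-gene median by under 0.1. No paired analysis was possible because there was only 1 array in a group, and there was no replicate to leave out.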
